A study of Mus musculus with 12 samples.

Results

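The transcripts described here encode 5 proteins of the machinery that writes N6-methyladenosine (m6A), Rbm15, Wtap, Zc3h13, Mettl16 and Virma, and 2 proteins that bind the mark, Ythdc1 and Ythdf3. They were chosen by gene symbol. Together they held 16 of the 7460 distinct m6A peaks of the series, 11 on writer and 5 on reader transcripts, and each of the 16 was annotated to that gene alone. The peaks come from livers of male C57BL/6 mice aged 12 weeks, either with hepatic fibrosis after ligation of the bile duct (BDL), which stops bile from leaving the liver, or normal controls. RNA fragments were pulled down with an m6A antibody (IP), and 3 BDL and 3 control IP libraries were analysed. IP reads were not set against input, which was not analysed here. They therefore mix how much of a transcript was present with how far it was methylated. The labels number the samples without saying that each is a separate mouse, so p-values here measure only how far these samples spread, which may be technical.

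m6A is laid down on nascent mRNA by a complex whose catalytic pair is METTL3 and METTL14. WTAP holds that pair in nuclear speckles, VIRMA acts as a scaffold, ZC3H13 keeps the complex in the nucleus, and RBM15 binds RNA and recruits the complex to its sites. METTL16 is a separate methyltransferase that modifies U6 small nuclear RNA and the mRNA of the S-adenosylmethionine synthetase MAT2A. YTHDC1 reads the mark in the nucleus, where it takes part in splicing and export, and YTHDF3 reads it in the cytoplasm, where it takes part in translation and decay. The values below are IP reads of the mRNAs of these proteins and do not measure the proteins or their activity.

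The libraries held 20540863 to 35691860 reads in peaks in BDL and 15254737 to 19378332 in control. Of 7083 peaks that passed the filter on low counts, 649 (9.16%) passed an adjusted p of 0.05 between BDL and control (edgeR quasi-likelihood test, Benjamini-Hochberg). At gene level, on the sum of a gene's own peaks, 635 of 4306 (14.7%) passed. These totals fell when a single library was left out, which also leaves fewer libraries to test. The count of genes was 375, 259 and 223 without BDL replicates 1, 2 and 3, and 582, 433 and 622 without control replicates 1, 2 and 3. In the same order the count of peaks was 338, 155 and 170, and 487, 362 and 611. Levels are given as CPM, reads scaled to the library by TMM, over all peaks for a peak and over the peaks that belong to 1 gene alone for a gene, so CPM of a gene and of its peaks differ in scale. Absent reads were more frequent in control, where 316 to 491 peaks wider than 75 bases held 2 reads or fewer in each library, against 73 to 98 in each BDL library.

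The peaks lay mostly inside the gene spans and away from the 3′ end. Positions are 1-based and follow the deposited table, which names no build. The listed spans of all 7 genes overlapped those of the same symbols in GRCm38.p6. Exons and untranslated regions were not assigned, and a place is the centre of the peak as a percentage of the gene span from its 5′ end. Of the 16 peaks, 4 lay beyond 80% of the span (25%), against 64.4% of the 6474 peaks of the series annotated to a single gene. This is a description of 7 genes, with no test.

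The reader transcripts each had clustered peaks. Ythdf3 (chromosome 3, plus strand) had peaks at 16204174 to 16204373 and at 16204849 to 16205098, 475 bases apart and at 62.3% and 64.3% of the span. Ythdc1 (chromosome 5, plus strand) had 3 peaks within the stretch from 74.0% to 79.4% of the span, at 86828214 to 86828263, 86828989 to 86829188 and 86829339 to 86830587. The last of these was 1249 bases wide, where the median peak of the series was 175.

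Among the writers, Wtap (chromosome 17, minus strand) had peaks at 12974674 to 12974873 and 12974899 to 12975023 that were separated by 25 bases, at 69.0% and 68.3% of the span. Virma (chromosome 4, plus strand) had 3 peaks spread over its gene, at 11513688 to 11513862, 11519120 to 11519319 and 11550472 to 11550521, the last ending 163 bases before the listed gene end. Zc3h13 (chromosome 14, plus strand) had a wide peak of 1494 bases at 75321901 to 75323394, at 63.7% of the span. It also had narrow peaks at 75343670 to 75343719 and at 75344320 to 75344419, the latter ending 7 bases before the gene end. Rbm15 (chromosome 3, minus strand) had peaks at 107333006 to 107333180, which began 493 bases after the listed gene start, and at 107331306 to 107331480. They lay at 7.03% and 27.6% of the listed span, which is shorter than the RefSeq span of the gene. Mettl16 (chromosome 11, plus strand) had a single peak at 74817570 to 74817669, at 81.1% of the span.

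**Figure D1:**
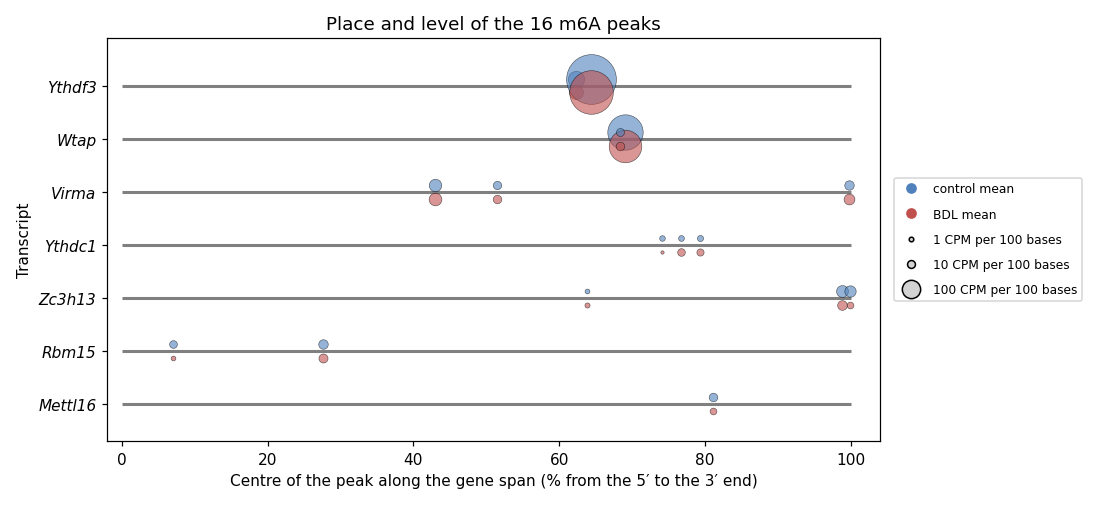
Place of the 16 peaks along each gene span (x axis, percent from the 5′ to the 3′ end, gene spans as grey lines) and their mean level in control (blue, above the line) and BDL (red, below), with the size of a circle growing with CPM per 100 bases of peak over 3 libraries. The largest circles are the second Ythdf3 peak and the Wtap peak at 69.0%, and only Rbm15 has peaks before 40% of the span.

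IP levels of the 7 transcripts differed widely when set per length of peak. In control livers Ythdf3 held 658 ± 49.4 CPM per 100 bases of peak (mean ± SD, n = 3), more than 98.4% of the genes with peaks of their own. Wtap followed with 332 ± 48.2, then Virma with 27.9 ± 3.12, Rbm15 with 16.3 ± 3.72, Mettl16 with 15.4 ± 4.18, Zc3h13 with 4.77 ± 2.69 and Ythdc1 with 4.66 ± 0.717. The library values of Rbm15 and Mettl16 overlapped, as did those of Zc3h13 and Ythdc1, and no other neighbours in this order did. Zc3h13 and Ythdc1 carry the widest peaks, which lower a level per length.

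In BDL livers the first 4 places of that order were taken by Ythdf3 with 485 ± 42.7 CPM per 100 bases, Wtap with 275 ± 27.2, Virma with 30.1 ± 3.01 and Rbm15 with 9.71 ± 3.39. Next came Ythdc1 with 8.58 ± 1.85, before Mettl16 with 6.93 ± 4.20 and Zc3h13 with 3.06 ± 0.715 (n = 3 each). From Rbm15 down, each transcript overlapped the next in its library values.

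**Figure D2:**
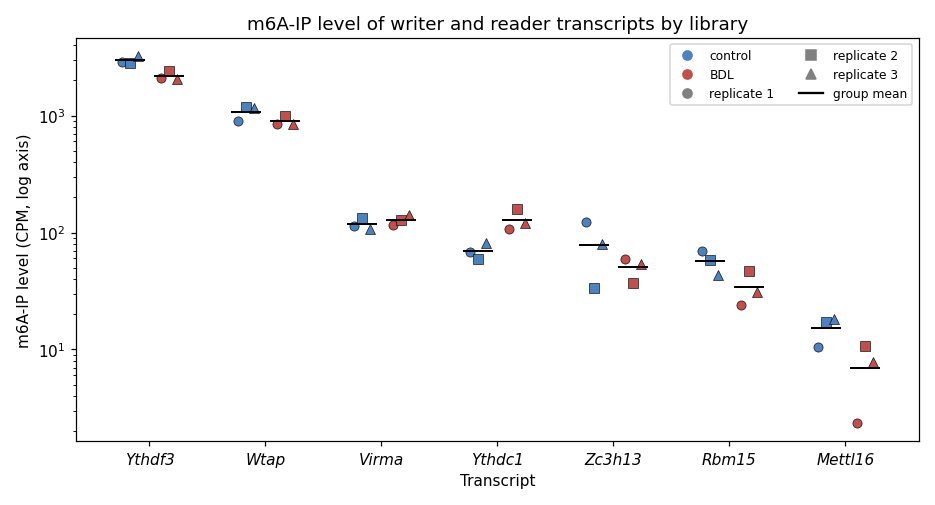
IP level of each transcript (y axis, CPM summed over its peaks, log axis) in each control (blue) and BDL (red) library, with the mark giving the replicate number and the line the group mean. The BDL libraries lie above all control libraries for Ythdc1 and below them for Ythdf3, while the groups overlap for the other 5 transcripts.

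None of the 7 transcripts passed the threshold between BDL and control (edgeR, Benjamini-Hochberg over 4306 genes, of which 14.7% passed, 8.2% higher and 6.55% lower in BDL). At an unadjusted p under 0.05 there were 2 of 7, Ythdc1 and Ythdf3, where 27.5% of all genes fell under it, and DESeq2 called the same 2 where it called 19.7% of all genes. The BDL and control values did not overlap for these 2 of 7, against 38.9% of all tested genes. Of the 16 peaks, 15 passed the filter on low counts and none passed the test, against 4.62% of all tested peaks that passed as higher in BDL and 4.55% as lower. DESeq2 called 2 of the 15, the widest Ythdc1 peak and the second Ythdf3 peak, and 16.5% of all peaks. There were 4 of 15 at an unadjusted p under 0.05 (23.7% of all peaks) and 5 of 15 without overlap between the groups (37.4% of all peaks). All these shares are near those of the whole series, or below them. The median log2 difference, BDL minus control, was -0.44 over the 7 transcripts and 0.03 over all tested genes.

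Ythdc1 had more IP reads in all 3 BDL libraries than in any control library. Its reads summed over 3 peaks were 2015, 5462 and 3154 in BDL replicates 1 to 3 and 782, 838 and 1222 in control. In CPM these are 106, 160 and 120 against 68.4, 59.8 and 81.2, so that the lowest BDL library lay above the highest control library. The mean was 129 ± 27.7 CPM in BDL and 69.8 ± 10.8 in control (n = 3 each). The log2 difference was 0.88 (SE 0.26, 95% interval 0.30 to 1.47, edgeR adjusted p = 0.0519), a fold of 1.84 with an interval from 1.23 to 2.76. It lay just outside the threshold, and DESeq2 placed it inside (adjusted p = 0.0277).

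The widest Ythdc1 peak carried most of these reads and of the difference. It held 1638, 4623 and 2631 reads in BDL and 733, 834 and 865 in control, with levels of 91.5 ± 22.0 and 50.8 ± 2.36 CPM (n = 3 each). The log2 difference of this peak was 0.85 (SE 0.26, edgeR adjusted p = 0.0822 over 7083 peaks). The coefficient of variation of its control CPM, 4.65%, was the lowest of the 16 peaks in either group. The neighbouring peak of 200 bases held 377, 837 and 523 reads in BDL and 49, 2 and 284 in control. Its groups did not overlap, but the scatter of the control libraries left a log2 difference of 1.48 with a 95% interval from -1.39 to 4.34 (edgeR adjusted p = 0.530). The narrow first peak had 0, 2 and 0 reads in BDL and 0, 2 and 73 in control and was not tested.

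Ythdf3 differed the other way and by less. Its reads were 39322, 82367 and 54526 in BDL and 32639, 39412 and 48417 in control. As CPM these are 2073, 2406 and 2072 in BDL, all below the control values of 2853, 2813 and 3216. The log2 difference was -0.44 (SE 0.14, 95% interval -0.77 to -0.11, edgeR adjusted p = 0.0782), and DESeq2 gave an adjusted p of 0.0173. With libraries scaled by their totals alone the log2 difference was -0.16 (edgeR adjusted p = 0.497), and those of its peaks were -0.26 and -0.083.

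Both Ythdf3 peaks pointed the same way. The second and larger peak held 37337, 78134 and 51236 reads in BDL and 30414, 37259 and 45534 in control, a log2 difference of -0.41 (SE 0.14, edgeR adjusted p = 0.125). The first peak held 1985, 4233 and 3290 against 2225, 2153 and 2883, a log2 difference of -0.59 (SE 0.20, edgeR adjusted p = 0.112). Neither peak overlapped between the groups in CPM. The raw reads stand beside larger BDL libraries, and the order of the groups shows only after scaling.

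**Figure D3:**
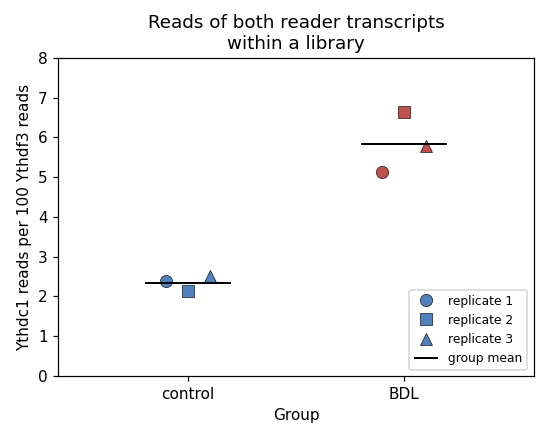
Reads of Ythdc1 per 100 reads of Ythdf3 (y axis) in each control and BDL library, with the mark giving the replicate number and the line the group mean. The 3 control libraries lie between 2.13 and 2.52 and the 3 BDL libraries between 5.12 and 6.63.

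Set against each other within a library, which needs no scaling between libraries, there were 5.12, 6.63 and 5.78 Ythdc1 reads per 100 Ythdf3 reads in BDL and 2.40, 2.13 and 2.52 in control. The ratio was 2.48-fold higher in BDL. On the log2 scale it was -4.10 ± 0.19 in BDL and -5.42 ± 0.13 in control (mean ± SD, n = 3 each), a log2 difference of 1.31. The ratio was chosen after the values of both genes had been seen. Since each gene already separated the groups, in opposite directions, their ratio had to as well, and it is given as a description with no test.

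Markers of several liver cell types moved with the groups. Summed CPM of 8 hepatocyte markers ranged from 10864 to 15094 in BDL and from 20351 to 25074 in control. The 5 cholangiocyte markers with peaks summed to 1679 to 2748 against 45.7 to 64.8, the 5 macrophage markers to 5567 to 6748 against 1758 to 2988 and the 4 stellate cell and fibroblast markers to 594 to 960 against 184 to 297. Of these genes, 5 hepatocyte markers were lower in BDL, and 3, 4 and 3 markers of the other lists were higher (edgeR). Over all tested genes 6.55% passed as lower in BDL and 8.2% as higher. The lists did not move as one. The hepatocyte marker Trf had a log2 difference of 1.10 (edgeR adjusted p = 0.122) and the Kupffer cell marker Clec4f one of -0.60 (adjusted p = 0.147). Neither overlapped between the groups, as was so for 38.9% of all tested genes. None of the 3 endothelial markers passed edgeR or DESeq2, and 1 had an unadjusted p under 0.05, against 14.7%, 19.7% and 27.5% of all tested genes. Several defining markers, among them Krt19 and Krt7 of cholangiocytes, Adgre1 and Cd68 of macrophages and Col1a1 of fibroblasts, had no peak of their own in the table. Of the lymphocyte markers only Il2rb had a peak, and it held no reads in control. Reads of the hepatocyte genes Alb, Apob and Ttr were present in every library. The part of this shift in the reader values was not tested, and in bulk liver fewer cells of a type and less RNA per cell cannot be told apart.

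**Figure D4:**
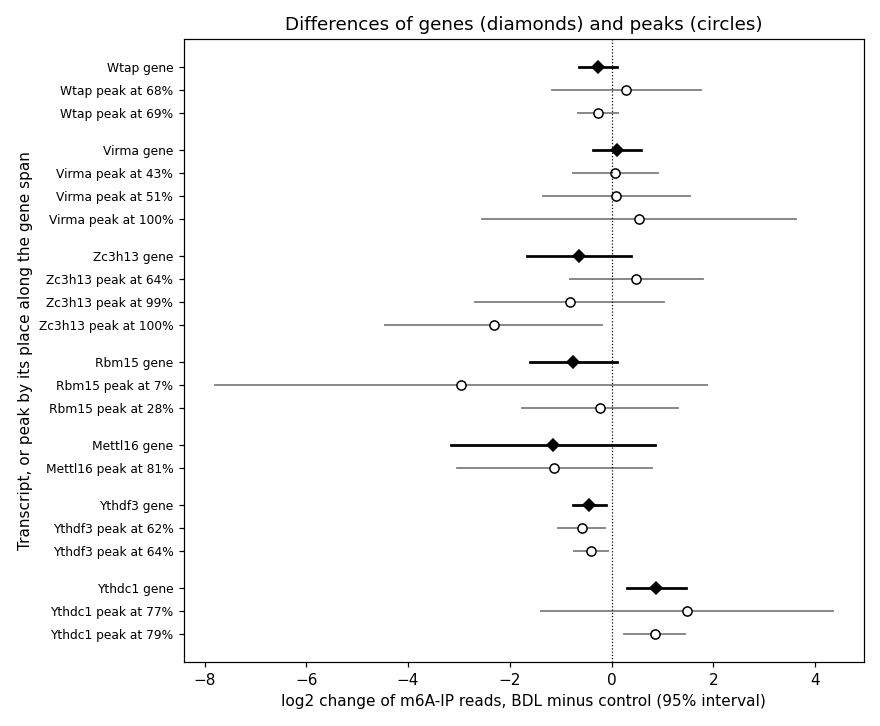
Log2 difference of IP reads, BDL minus control (x axis), with 95% intervals from the edgeR fit, for each transcript (diamonds) and each of its tested peaks (circles, named by place along the gene span). Intervals of the Ythdc1 and Ythdf3 genes lie on either side of 0, and the 5 writer genes include 0.

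Among the writers Wtap had the smallest SE of the log2 difference, 0.17. Its peaks summed to 15955, 34075 and 22184 reads in BDL and 10281, 16441 and 17551 in control, or 893 ± 88.3 and 1079 ± 156 CPM (n = 3 each). The groups overlapped, since control replicate 1 with 899 CPM lay below BDL replicate 2 with 995. The 95% interval of the fold, BDL over control, ran from 0.638 to 1.07 (edgeR adjusted p = 0.331). With libraries scaled by their totals alone the log2 difference of Wtap was 0.0050 in place of -0.27.

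Virma, the scaffold subunit, varied little as a whole. It held 115, 128 and 141 CPM in BDL and 114, 133 and 108 in control, and the groups overlapped in part. The fold had a 95% interval from 0.774 to 1.50 (edgeR adjusted p = 0.785).

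Its separate peaks varied far more in control than the gene as a whole. The first had 499, 1619 and 1159 reads there, the second 680, 249 and 158 and the third 122, 2 and 312. The coefficient of variation in control was 11.2% for the gene but 46.2%, 89.5% and 98.5% for the peaks. In BDL the first and second peaks varied by 6.19% and 6.46%, with 1483, 2982 and 2120 reads and 566, 1119 and 773 reads. The third, of 50 bases, held 132, 270 and 806 reads in BDL and varied by 88.0% there, near its 98.5% in control.

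Zc3h13 had 1130, 1270 and 1428 reads in BDL and 1394, 469 and 1204 in control. Control replicates 1 and 2, with 122 and 33.5 CPM, lay above and below all BDL libraries, and the log2 difference of -0.64 had a 95% interval from -1.67 to 0.39 (edgeR adjusted p = 0.409). It was -0.17 without control replicate 1 and -1.004 without control replicate 2. The peak at the very gene end, with 255, 92 and 124 reads in BDL and 876, 142 and 286 in control, had a log2 difference of -2.32 (SE 0.92, edgeR adjusted p = 0.174). It was the fourth peak with an unadjusted p under 0.05, and its log2 difference was -1.06 without control replicate 1. The wide peak inside the gene had a log2 difference of 0.49 (SE 0.57), with 546, 719 and 1237 reads in BDL and 182, 181 and 614 in control.

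Rbm15 held 456, 1614 and 809 reads in BDL and 796, 817 and 657 in control. In CPM, BDL replicate 2 with 47.1 lay above control replicate 3 with 43.6, so the groups overlapped narrowly. The fold had a 95% interval from 0.328 to 1.08 (edgeR adjusted p = 0.245).

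The Rbm15 peak near the gene start was absent from some BDL libraries. It held no reads in BDL replicates 1 and 2 and 197 in BDL replicate 3, against 109, 202 and 525 in control. Its groups did not overlap, and the log2 difference of -2.96 had a 95% interval from -7.80 to 1.87 (edgeR adjusted p = 0.444). Without BDL replicate 3 this peak passed (edgeR adjusted p = 0.0425), with both remaining BDL libraries at 0. Over all 3 libraries a group, the mean was 2.12 ± 3.67 CPM in BDL and 16.6 ± 11.5 in control. The bounds that follow use BDL replicates 1 and 2 alone, taken because they held 0. They leave out BDL replicate 3, which had 6.36 CPM beside 7.93 in control replicate 1. A large ratio was fixed by that choice, so these bounds do not measure the group difference. With a floor of 3 reads in each, the control mean was at least 158-fold higher than the mean of these 2 floors. It was at least 95.8-fold higher without control replicate 3. The lowest control library was at least 58.9-fold higher than the higher floor. These bounds cover counting error only and assume that reads were absent by counting chance, which was not tested. In BDL replicates 1 and 2, 422 and 454 peaks of the series held no reads, while 60 and 50 held 1 to 20 reads.

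Mettl16 had the fewest IP reads of the 7, with 45, 364 and 205 reads in BDL and 121, 243 and 274 in control. In CPM these were 2.37, 10.6 and 7.79 against 10.6, 17.3 and 18.2, where BDL replicate 2 and control replicate 1 stood level. The 95% interval of the fold ran from 0.112 to 1.82 (edgeR adjusted p = 0.449). The coefficient of variation between libraries was 60.5% in BDL and 27.2% in control.

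**Figure D5:**
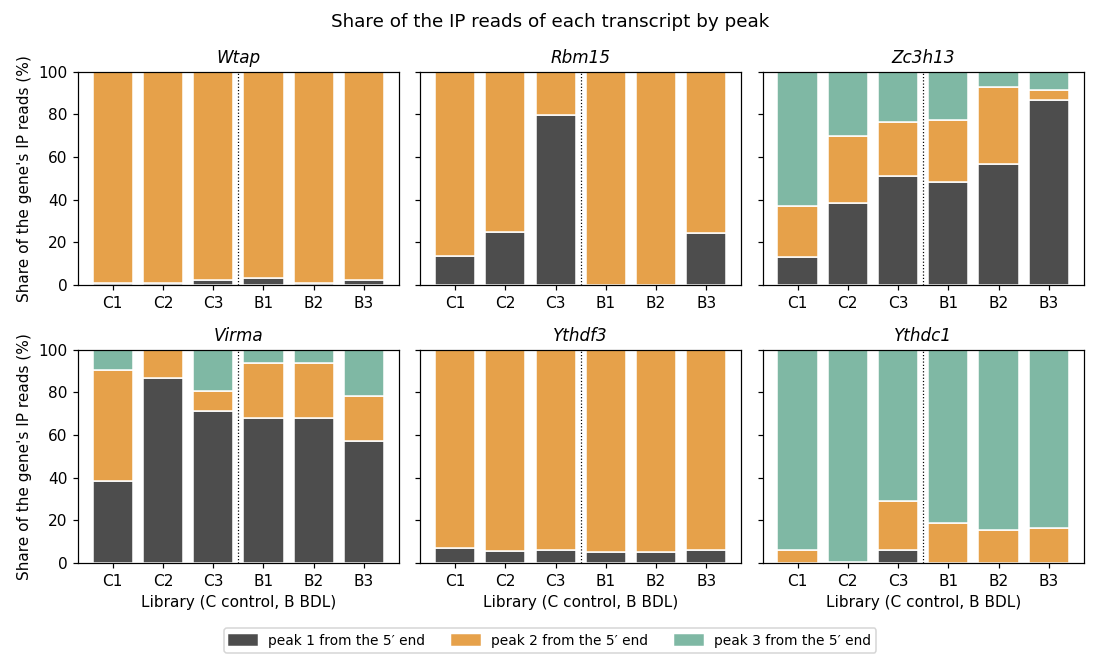
Share of the IP reads of a transcript in each of its peaks (y axis, percent), counted from the 5′ end, in the 3 control (C1 to C3) and 3 BDL (B1 to B3) libraries. Wtap and Ythdf3 keep nearly all reads in their second peak in every library, whereas the shares of Rbm15, Zc3h13 and Virma differ between libraries of a group.

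The share of a gene's reads that falls in each peak does not depend on library scaling. It was computed for the 15 peaks of the 6 genes with more than 1 peak. With 3 against 3 libraries the exact two-sided permutation test cannot go below 0.1. Across these 15 shares it ranged from 0.1 to 1, and after Benjamini-Hochberg adjustment the lowest was 0.6. No member peak passed the test against the other peaks of its gene (edgeR diffSpliceDGE, each adjusted p above 0.99), where 0.224% of the 3122 peaks in this test passed, and no member was among the genes with differing peaks, 0.699% of 1288.

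The shares of Ythdf3 and Wtap were almost fixed. The second Ythdf3 peak took 94.6 ± 0.545% of the reads in BDL and 93.9 ± 0.686% in control. The Wtap peak at 12974674 took 97.8 ± 1.14% and 98.6 ± 0.646% (mean ± SD, n = 3 each). The widest Ythdc1 peak took 83.1 ± 1.69% in BDL and 88.0 ± 15.2% in control, where the libraries gave 93.7%, 99.5% and 70.8%. No 95% Wilson interval of a single library, which covers counting error only, was wider than 0.55 percentage points for Ythdf3 and Wtap or 5.09 for this Ythdc1 peak.

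Of the 15 shares compared, 1 had groups that did not overlap, in Zc3h13. How often shares do so over all genes of the series was not computed. The Zc3h13 peak at the gene end took 22.6%, 7.24% and 8.68% of the reads in BDL and 62.8%, 30.3% and 23.8% in control. The mean was 12.8 ± 8.46% in BDL and 39.0 ± 20.9% in control (n = 3 each, exact two-sided permutation p = 0.1, adjusted 0.6). The difference of -26.1 percentage points was -14.2 without control replicate 1. BDL replicate 1 and control replicate 3 were not apart at this depth, with 95% Wilson intervals from 20.2% to 25.1% and from 21.4% to 26.2%. The wide peak inside the gene took 48.3%, 56.6% and 86.6% in BDL and 13.1%, 38.6% and 51.0% in control. The peak between them, of 50 bases, took 23.3 ± 16.5% and 26.8 ± 3.77%.

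In Rbm15 the peak near the gene start took 0%, 0% and 24.4% of the reads in BDL and 13.7%, 24.7% and 79.9% in control. If reads were absent by counting chance, which was not tested, a count of 0 allows up to 0.658% of the 456 reads of BDL replicate 1. For the 1614 reads of BDL replicate 2 it allows up to 0.186%. Both limits cover counting error only. Control replicate 3 thus had most of its Rbm15 reads in the peak that the other libraries used least, and without it the group difference of -31.3 percentage points was -11.1. In Virma the first peak took 68.0%, 68.2% and 57.3% in BDL and 38.4%, 86.6% and 71.1% in control, and the group means of 64.5 ± 6.23% and 65.4 ± 24.6% differed by less than their spread (exact two-sided permutation p = 1).

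Of 13 listed writer genes, 6 had peaks of their own and were tested, the 5 above and Pcif1, which methylates the adenosine next to the mRNA cap. None passed edgeR or DESeq2, and 0 had an unadjusted p under 0.05, against 14.7%, 19.7% and 27.5% of all tested genes. Their median log2 difference was -0.46. In its own peak Pcif1 had 112 ± 28.2 CPM in BDL and 88.7 ± 7.17 in control (n = 3 each), a log2 difference of 0.34 (SE 0.26, edgeR adjusted p = 0.445). A further Pcif1 peak, also listed under Zfp335, had a log2 difference of 0.42 (SE 0.46, edgeR adjusted p = 0.636 over all peaks). The peak of Cbll1, which encodes the ubiquitin ligase HAKAI of the writer complex, and both peaks of the Rbm15 paralogue Rbm15b were also listed under other genes, for Rbm15b under Manf. The Cbll1 peak had a log2 difference of 0.79 (SE 0.37, edgeR adjusted p = 0.248 over all peaks) and those of Rbm15b of 0.14 and -0.56.

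Of 18 listed readers 7 were tested, and none passed edgeR. At an unadjusted p under 0.05 there were 4, beside Ythdc1 and Ythdf3 also Eif3h, a translation initiation factor subunit, and Elavl1, the RNA stability factor HuR. DESeq2 called 2, Ythdc1 and Ythdf3. Over all tested genes 27.5% had such a p and DESeq2 called 19.7%. The median log2 difference of the 7 readers was -0.44. Elavl1 had 77.6 ± 9.16 CPM in BDL and 122 ± 23.3 in control, and Eif3h 35.5 ± 9.83 and 65.1 ± 17.5 (n = 3 each). Their log2 differences were -0.66 (SE 0.25, edgeR adjusted p = 0.116) and -0.87 (SE 0.37, adjusted p = 0.163). Values were -0.76 (SE 0.52) for the splicing regulator Hnrnpa2b1, -0.22 (SE 0.18) for Eif3a and -0.02 (SE 0.21) for Prrc2a. Ythdc1 alone of the 7 had a log2 difference above 0, but with libraries scaled by their totals alone Prrc2a (0.25) and Eif3a (0.053) did as well.

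Among 12 listed partners of YTHDF proteins in mRNA decay, 3 were tested. None passed edgeR or DESeq2, and 0 had an unadjusted p under 0.05. Over all tested genes these shares were 14.7%, 19.7% and 27.5%, so 3 genes tell little. The deadenylase complex gene Cnot2 had 256 ± 9.97 CPM in BDL and 300.5 ± 21.7 in control (n = 3 each), with a log2 difference of -0.23 (SE 0.16, edgeR adjusted p = 0.403). Values were -0.57 (SE 0.43) for the helicase gene Upf1 and -1.13 (SE 1.72) for Cnot10, which had no reads in BDL replicate 3. A Cnot7 peak, also listed under Zdhhc2, had a log2 difference of -0.21 (SE 0.27). Of 7 listed nuclear partners of YTHDC1, Srsf3 had a peak that was listed at 0 in all libraries. No eraser and none of 7 genes of S-adenosylmethionine supply and turnover had a peak in the table analysed here.

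For each transcript the gene with the most similar profile over the 6 libraries was taken, by Pearson's r of log2 CPM among the other 4305 tested genes. With 6 points and the highest of 4305 values taken, high values arise easily and are given as a description. The 6 libraries include both groups, so a gene chosen this way tends to share the direction of the group difference. Whether it passed is therefore no support for the transcript, and 14.7% of all tested genes passed. Ythdc1 was most like Adam10, a membrane protease (r = 0.996), which had a log2 difference of 0.89 and passed (edgeR adjusted p = 0.0315). Ythdf3 was most like Ddi2, an aspartic protease (r = 0.992), which had a log2 difference of -1.22 and passed (edgeR adjusted p = 0.0265). Ythdc1 had 37 genes and Ythdf3 had 32 genes with r over 0.95. Among the writers, Mettl16 was most like Bpgm (r = 0.991), Rbm15 like Frs2 (r = 0.986), Wtap like Eif2ak2 (r = 0.978), Virma like Nhsl2 (r = 0.968) and Zc3h13 like Kdm5c (r = 0.959). None of these 5 genes passed edgeR, and the number of genes with r over 0.95 went from 1 for Zc3h13 to 17 for Rbm15.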

How the data were processed

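Per the labels' protocols, total liver RNA was fragmented, enriched with an m6A antibody and reverse transcribed with random primers. The submitters' processing notes name bcl2fastq 2.17, fastp, Bowtie2 2.2.8 and HISAT2 without roles. Not given in the sources used here were the peak caller, merging rule, read counter, its use of strand, build and annotation. The deposited table has 1 set of merged peaks with a raw count for each of 6 IP libraries, per the file headers. It also holds RPM values, treated as a score, which equal the deposited count scaled to the reads of the library in distinct peaks. They served only as this check. Its 8649 lines hold 7460 distinct peaks, since a peak of several genes is listed for each. Depth is the reads in peaks, and precision is given by the SD over 3 libraries a group.

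Counts per distinct peak, and summed per gene over peaks of that gene alone, were filtered with filterByExpr, scaled with TMM and compared by the quasi-likelihood test of edgeR with robust dispersion, adjusted by Benjamini-Hochberg over all features and a threshold of 0.05. The SE is the log2 difference over the square root of F, and 95% intervals use the fit's degrees of freedom. Peaks of 1 gene were compared with diffSpliceDGE. Samples were grouped by their source label. DESeq2 1.42.0 and edgeR 4.0.16 (with limma 3.58.1) ran in R 4.3.3, and the fits were tested on simulated data. Alternatives were DESeq2, its size factors, library totals, no filter, 50 reads in every library of a group, peaks of 75 bases or less left out, single libraries left out and the replicate number as a block. The transcripts and lists were chosen with earlier results of these data known. Named were all 7 transcripts with every peak, every tested writer and reader, up to 4 tested genes of each other pathway list by smallest p, and the gene most like each transcript. Cell markers were named outside this rule, after their values were seen.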

Additional observations from a re-analysis of the deposited data

How the results depend on the processing

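Direction did not turn for Rbm15, Zc3h13, Mettl16, Virma, Ythdc1 and Ythdf3 at gene level under any of the 13 alternatives run. Of the 7 transcripts, edgeR called 0, and 1, Ythdc1, with DESeq2 size factors (adjusted p = 0.0496), with library totals (0.0188) and without peaks of 75 bases or less (0.0424). DESeq2 called 2. Counts over all listed machinery and partner genes were the same, 0, 1, 1, 1 and 2. Leaving out 1 library called 0 of the 7, with adjusted p from 0.0575 to 0.212 for Ythdc1 and from 0.0984 to 0.229 for Ythdf3. Of the member peaks, 1 passed with library totals (Ythdc1, 0.0294), 2 with DESeq2, and 0 to 1 without 1 library.

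Library totals moved the median log2 difference of all genes by 0.275, and Ythdf3 from -0.44 to -0.16 (adjusted p = 0.497). Relative to that median Ythdc1 stood at 0.85 and Ythdf3 at -0.47 under both scalings, as a shift common to all genes would leave them. That scaling called 608 peaks higher and 173 lower, 77.8% higher against 50.4% with TMM. It turned the log2 differences of Wtap (0.0050), its peak at 12974674 (0.065), the Rbm15 peak at 107331306 (0.11), Cnot2 (0.046), Prrc2a (0.25) and Eif3a (0.053).

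Over the whole series, DESeq2 called 1169 peaks. Leaving out 1 library gave 155 to 611 peaks and 223 to 622 genes, and 0 to 18 peaks that differed from the others of their gene, where 7 passed with all libraries and 12 under a filter of 50 reads. Libraries of equal replicate number showed little shared deviation from their group means, with correlations of 0.0295, 0.00993 and 0.00915. For unequal numbers these ran from -0.0265 to 0.0186. Such values cannot tell whether libraries were handled in pairs. With the replicate block 287 peaks, 415 genes and 0 peaks against the others of their gene passed, none of them of the 7 transcripts, and the block turned the Rbm15 peak at 107331306 (0.082) and, relative to the other peaks, the Virma peaks at 11513688 (0.053) and 11519120 (0.37). The latter also turned without narrow peaks (0.0097).

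Without 1 library, log2 differences that turned ranged from -0.69 to 0.27 for the Rbm15 peak at 107331306, from -0.059 to 0.83 for the Wtap peak at 12974899 and from -0.14 to 0.065 for Prrc2a. For the Virma peaks at 11513688, 11519120 and 11550472 they ranged from -0.22 to 0.46, -0.30 to 1.13 and -0.49 to 1.52, and relative to the other peaks from -0.31 to 0.24, -0.38 to 1.04 and -0.55 to 1.45. The Zc3h13 peak at 75343670 ranged from -0.54 to 0.32 relative to its gene. The cause was not tested. Differences in share moved by less than the larger of the 2 group SDs under the alternatives run, but in several genes by more than the smaller SD. Without 1 library they ranged from -14.4 to 9.76 percentage points for the Virma peak at 11513688, from -8.64 to 12.6 for that at 11519120, from -13.5 to 0.856 for the widest Ythdc1 peak and from -44.2 to -11.1 for the Rbm15 peak near the gene start. Alternatives for the ratio of Ythdc1 to Ythdf3, chosen after seeing the data, gave log2 differences from 1.22 to 1.40.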
